A study of Mus musculus with 12 samples.

Results

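The 34 genes described here are genes of red cell formation and of heme synthesis, listed by symbol and grouped into globins, heme synthesis, the red cell membrane and surface, and the receptor and transcription factors of the lineage. In the deposited table of 54351 gene rows, 33 of the 34 had a row, and these 33 were among the 20897 genes that passed the filter on low counts and were tested. The remaining listed gene was not analysed here. The genes were followed as a trace of erythroid cells in samples labelled as T cells, through RNA sequencing of 12 mouse samples in 4 groups of 3. The first group was spleen cells labelled as T-cell acute lymphoblastic leukaemia (T-ALL) of overtly sick LN3 transgenic mice (LN3 spleen). The second was thymus cells with the same label and genotype (LN3 thymus). The others came from wild-type mice without tumours: CD8 T cells of the spleen (WT CD8 cells) and total thymocytes (WT thymocytes). All 12 samples had the strain label C57BL/6, and the labels used here give neither the transgene behind the name LN3, its promoter, nor the ages of the mice. Organs were broken up mechanically, and only the WT CD8 cells were enriched, by negative selection to a stated purity of 85 to 95%. The labels' protocols name no sorting or enrichment of the LN3 cells. Whether the 3 samples of a group are 3 animals is not stated in the labels, and the p-values therefore speak only of the spread among these libraries, part of which may be technical.

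Red cells arise from progenitors that depend on the erythropoietin receptor and on the transcription factors Gata1 and Klf1, which turn on the globin, heme synthesis and membrane genes. Heme is built from glycine and succinyl-CoA by a chain of enzymes that begins and ends in the mitochondrion, and every cell makes some of it for its cytochromes, while erythroid precursors make far more with their own first enzyme, Alas2. Reticulocytes and young red cells keep globin mRNA after the nucleus is lost. The spleen of the mouse is a site of red cell formation under stress, and the thymus is where T cells develop.

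The sequences just upstream of 4 members are printed because these genes stand for the roles and for the pattern of the data: a beta globin, an alpha globin, the first erythroid heme enzyme, and the receptor, which was the member that rose in LN3 thymus. Each run holds the 250 bases before the gene's start, 5′ to 3′ on the gene's strand, from RefSeq on GRCm38.p6: chr7:103827929-103828178 (minus strand) for Hbb-bs, chr11:32283422-32283671 (plus) for Hba-a1, chrX:150547167-150547416 (plus) for Alas2 and chr9:21963577-21963826 (minus) for Epor. Capitals mark matches on either strand to AGATAA, a motif of GATA factors, or to CCNCNCCCN, a motif of Klf1, with overlapping matches merged into 1 run of capitals.
Hbb-bs: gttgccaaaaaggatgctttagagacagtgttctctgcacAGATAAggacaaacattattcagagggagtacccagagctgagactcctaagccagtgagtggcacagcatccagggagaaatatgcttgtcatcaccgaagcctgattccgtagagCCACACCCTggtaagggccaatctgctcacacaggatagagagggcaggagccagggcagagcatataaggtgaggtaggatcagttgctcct
Hba-a1: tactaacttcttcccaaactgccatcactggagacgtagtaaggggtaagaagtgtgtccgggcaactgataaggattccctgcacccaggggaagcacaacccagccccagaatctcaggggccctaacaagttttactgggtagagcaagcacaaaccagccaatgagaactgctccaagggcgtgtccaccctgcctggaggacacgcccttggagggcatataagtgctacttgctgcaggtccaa
Alas2: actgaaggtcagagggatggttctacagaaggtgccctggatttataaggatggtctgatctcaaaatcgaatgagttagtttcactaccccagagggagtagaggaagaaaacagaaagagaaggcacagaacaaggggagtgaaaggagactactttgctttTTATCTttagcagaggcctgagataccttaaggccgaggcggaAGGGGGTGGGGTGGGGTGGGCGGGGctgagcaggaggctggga
Epor: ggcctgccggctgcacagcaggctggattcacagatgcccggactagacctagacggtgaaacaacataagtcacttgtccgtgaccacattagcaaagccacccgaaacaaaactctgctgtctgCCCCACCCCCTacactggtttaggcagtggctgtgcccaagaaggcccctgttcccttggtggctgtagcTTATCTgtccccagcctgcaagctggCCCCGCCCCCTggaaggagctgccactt
Hbb-bs held 1 match to each motif, Alas2 and Epor held 1 AGATAA and several overlapping CCNCNCCCN matches, and the Hba-a1 window held neither run of letters. Promoter windows of 25 of the 34 listed genes were searched. AGATAA occurred in 9 of the 25 (36%), against 11.4% of 26727 genes with a window of the same length, and CCNCNCCCN in 13 of the 25 (52%), against 48.6%. The 9 genes were Alas2, Epb42, Epor, Hbb-bs, Icam4, Kel, Rhd, Tmcc2 and Trim10. A match is a run of letters and not a bound site.

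Total counts per library ran from 12694571 to 42483898. Levels are in CPM, each library's counts divided by its TMM-scaled size, with the libraries of a group in the order 1, 2 and 3. A count of 3 corresponded to 0.0656 to 0.261 CPM, and intervals and floors cover counting error only. The 8 T cell markers Cd3e, Cd3d, Cd3g, Cd247, Lck, Cd2, Thy1 and Lat together reached 3380 to 3620 CPM in LN3 spleen, 3220 to 5240 in LN3 thymus, 1880 to 2960 in WT CD8 cells and 3600 to 7670 in WT thymocytes, and none was at 0 in any group. A few libraries stood apart for the erythroid genes. Among LN3 spleen libraries, 31 of the 33 members were highest in library 3, where 33.1% of all tested genes were highest, and 31 were lowest in library 2. Among WT CD8 libraries, 32 of the 33 were highest in library 2, where 33.3% of all tested genes were. The calls that were lost without LN3 spleen 3 or WT CD8 2 are named with each comparison.

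By group mean, all 33 members were highest in LN3 spleen. Against LN3 thymus, 18 of the 33 rose and none fell at an adjusted p below 0.05 (edgeR's quasi-likelihood test with Benjamini-Hochberg adjustment over all genes), where 0.694% of all tested genes rose and 0.0287% fell. These 18 were 12.4% of the 145 genes of the whole table that rose in this comparison and 54.5% of the members tested. The median log2 difference of the members was 6.00, against −0.05 for all tested genes, and all 3 LN3 spleen libraries lay above all 3 LN3 thymus libraries for 29 of the 33 members and below them for none, against 6.22% and 5.24% of all tested genes. In bulk samples, fewer cells of a type and less RNA per cell cannot be told apart. The unadjusted p was below 0.05 for 32 of the 33. The calls depended on single libraries: without LN3 thymus 1, edgeR called 0 of the members and 0 genes of the whole table, although 30 members kept an unadjusted p below 0.05, and DESeq2, run on all 12 libraries, called 27. The members called numbered 2 without LN3 thymus 2, 6 without LN3 thymus 3, 9 without LN3 spleen 1, 7 without LN3 spleen 3, 11 without WT thymocyte 1 and 9 without WT thymocyte 3. Without LN3 spleen 3 the calls of Alas2, Aqp1, Cldn13, Epb42, Icam4, Kel, Klf1, Nfe2, Rhag, Slc4a1 and Trim10 were lost, and Ank1, Car1, Car2, Ermap, Rhd, Tmcc2 and Tspo2 kept theirs. WT thymocytes enter this comparison only through the shared estimate of the spread. Scaling by library totals left 9.

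Against WT CD8 cells, 20 of the 33 members rose in LN3 spleen and none fell, where 17.9% of all tested genes rose and 13% fell. The members' median log2 difference was 2.65, against −0.11 for all tested genes, and LN3 spleen lay above WT CD8 cells without overlap for 20 of the 33 and below for none, against 27.5% and 30.8% of all tested genes. The calls numbered 5 without LN3 spleen 3, 6 without WT CD8 1 and 7 without WT CD8 3, and 25 without WT CD8 2. The 5 members called whichever of the 12 libraries was left out were Alad, Alas2, Fech, Slc25a37 and Tmcc2. These were also the 5 that kept their call without LN3 spleen 3, where the calls of Ank1, Car1, Cldn13, Cpox, Epb42, Ermap, Hemgn, Icam4, Kel, Klf1, Rhag, Rhd, Slc4a1, Trim10 and Urod were lost. Scaling by library totals and testing without the filter on low counts left 10 calls each. All 8 proliferation markers, Mki67 among them, were also higher in LN3 spleen, at a summed 3610 to 5800 CPM against 291 to 757 CPM in WT CD8 cells, and their part in the result was not tested.

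In the thymus few members were called. Against WT thymocytes, 1 of the 33 members rose in LN3 thymus (Epor), where 6.06% of all tested genes rose, and 2 fell (Alas2 and Car2), where 5.21% of all tested genes fell. These counts were near the shares over all tested genes, 30 members were not called, and the median log2 difference was −0.23 against −0.04 for all tested genes. Groups did not overlap for 5 members with LN3 thymus above and 5 with LN3 thymus below, against 14.4% and 12.8% of all tested genes. Only Car2 kept its call whichever of the 12 libraries was left out. The number of calls was 1 without LN3 thymus 2 and without WT thymocyte 1, and 6 without WT thymocyte 2 and without WT CD8 2. It was 9 by DESeq2, and edgeR without the filter called 0, with 10 members at an unadjusted p below 0.05.

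Between the wild-type samples, 11 of the 33 members rose in WT CD8 cells against WT thymocytes, where 7.24% of all tested genes rose, and 1 fell (Slc25a37), where 8.48% fell. The median log2 difference was 2.43, against 0.00 for all tested genes. WT CD8 libraries lay above all WT thymocyte libraries for 13 members and below them for 1, against 17.5% and 19% of all tested genes. The calls numbered 5 without WT CD8 2 or without WT thymocyte 1, and 6 without WT thymocyte 2 or 3. Ank1, Car1, Ermap, Klf1 and Slc25a37 were called whichever library was left out. Without WT CD8 2 the calls of Cldn13, Epor, Icam4, Nfe2, Rhag, Rhd and Tspo2 were lost. These comparisons share groups, so their counts are not independent of each other.

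**Figure D1:**
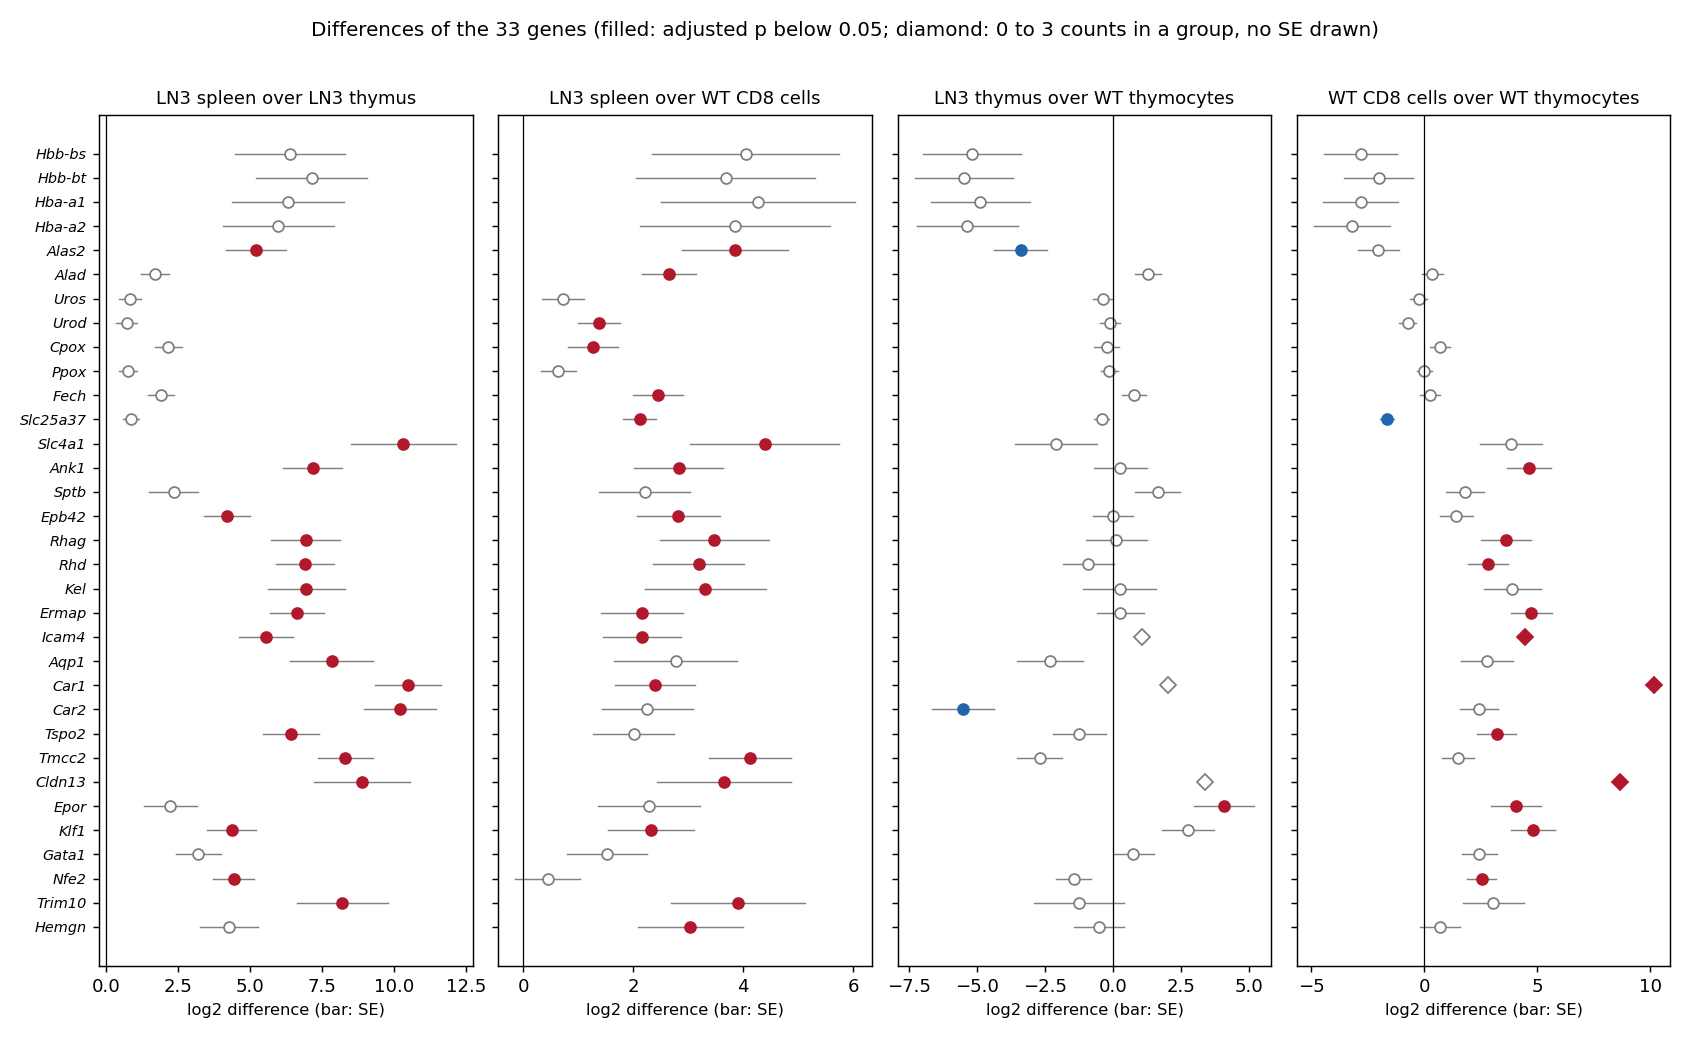
Log2 differences of the 33 members in 4 comparisons (horizontal axis, with bars of 1 SE), filled where the adjusted p was below 0.05, with diamonds and no bar where a group held 0 to 3 counts. LN3 spleen lay to the right of 0 for all 33 members against LN3 thymus and against WT CD8 cells, and the 4 globins lay to the left of 0 in the other 2 panels.

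By group mean, haemoglobin mRNA was highest in LN3 spleen and lowest in LN3 thymus. WT thymocytes 1 and 3 held far more of it than WT thymocyte 2, which lay among the LN3 thymus libraries. The rows of the adult beta globins Hbb-bs and Hbb-bt and the adult alpha globins Hba-a1 and Hba-a2 were summed and set over the library's counts. In LN3 spleen they made up 0.438% (95% Clopper-Pearson interval 0.434 to 0.441), 0.147% (0.146 to 0.149) and 0.417% (0.415 to 0.42) of counts. In LN3 thymus the shares were 0.000954% (0.000824 to 0.0011), 0.0103% (0.00978 to 0.0108) and 0.000561% (0.000487 to 0.000642). WT CD8 cells held 0.015% (0.0144 to 0.0156), 0.0681% (0.0672 to 0.0691) and 0.0035% (0.00333 to 0.00369). In CPM, the highest library was 3.58 times the lowest in LN3 spleen, 23.4 times in LN3 thymus and 17.8 times in WT CD8 cells. WT thymocytes spread most, with 0.447% (0.443 to 0.45), 0.00125% (0.00107 to 0.00146) and 0.126% (0.124 to 0.128), and in CPM the highest was 397 times the lowest. Group means were 0.334 ± 0.162% in LN3 spleen, 0.00393 ± 0.00549% in LN3 thymus, 0.0289 ± 0.0345% in WT CD8 cells and 0.191 ± 0.23% in WT thymocytes (SD, n = 3 each).

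None of the 4 globins passed edgeR's adjusted threshold in any comparison, and their levels spread widely within groups. All 4 had an unadjusted p below 0.05 in LN3 spleen against LN3 thymus, in LN3 spleen against WT CD8 cells and in LN3 thymus against WT thymocytes, where DESeq2 called 4, 3 and 4 of them, and none had in WT CD8 cells against WT thymocytes, where DESeq2 called 0. Hbb-bs (chr7:103826523-103827928, GRCm38.p6) had 1810, 610 and 2140 CPM in LN3 spleen, 3.31, 48.8 and 2.02 in LN3 thymus, 45.3, 216 and 13.4 in WT CD8 cells and 1410, 4.16 and 526 in WT thymocytes. LN3 spleen was above both LN3 thymus and WT CD8 cells in every library, with a log2 difference of 6.41 (adjusted p = 0.218) against LN3 thymus and 4.05 (adjusted p = 0.0892) against WT CD8 cells. Hba-a1 (chr11:32283672-32284486) had 1950, 444 and 1480 CPM in LN3 spleen, 2.35, 44.3 and 1.83 in LN3 thymus, 34.3, 157 and 8.66 in WT CD8 cells and 1020, 2.76 and 390 in WT thymocytes. Its log2 difference in LN3 thymus against WT thymocytes was −4.88 (adjusted p = 0.115), and that of Hbb-bs was −5.18 (adjusted p = 0.0907): WT thymocyte 2 lay among the LN3 thymus libraries for both genes, so these groups overlapped. WT CD8 cells stood below WT thymocytes 1 and 3 and above WT thymocyte 2. Hbb-bt and Hba-a2 ran in parallel, at 145 to 508 and 329 to 1260 CPM in LN3 spleen and at 0.562 to 7.27 and 1.46 to 37.3 CPM in LN3 thymus. The coding sequences of Hbb-bs and Hbb-bt differ in 1 of 444 bases and those of Hba-a1 and Hba-a2 in 1 of 429, so the split of counts between the copies is uncertain, and the sum of each pair is the firmer value. Summing each pair to 1 row left the number of members called in every comparison within 1.5 times the values above.

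**Figure D2:**
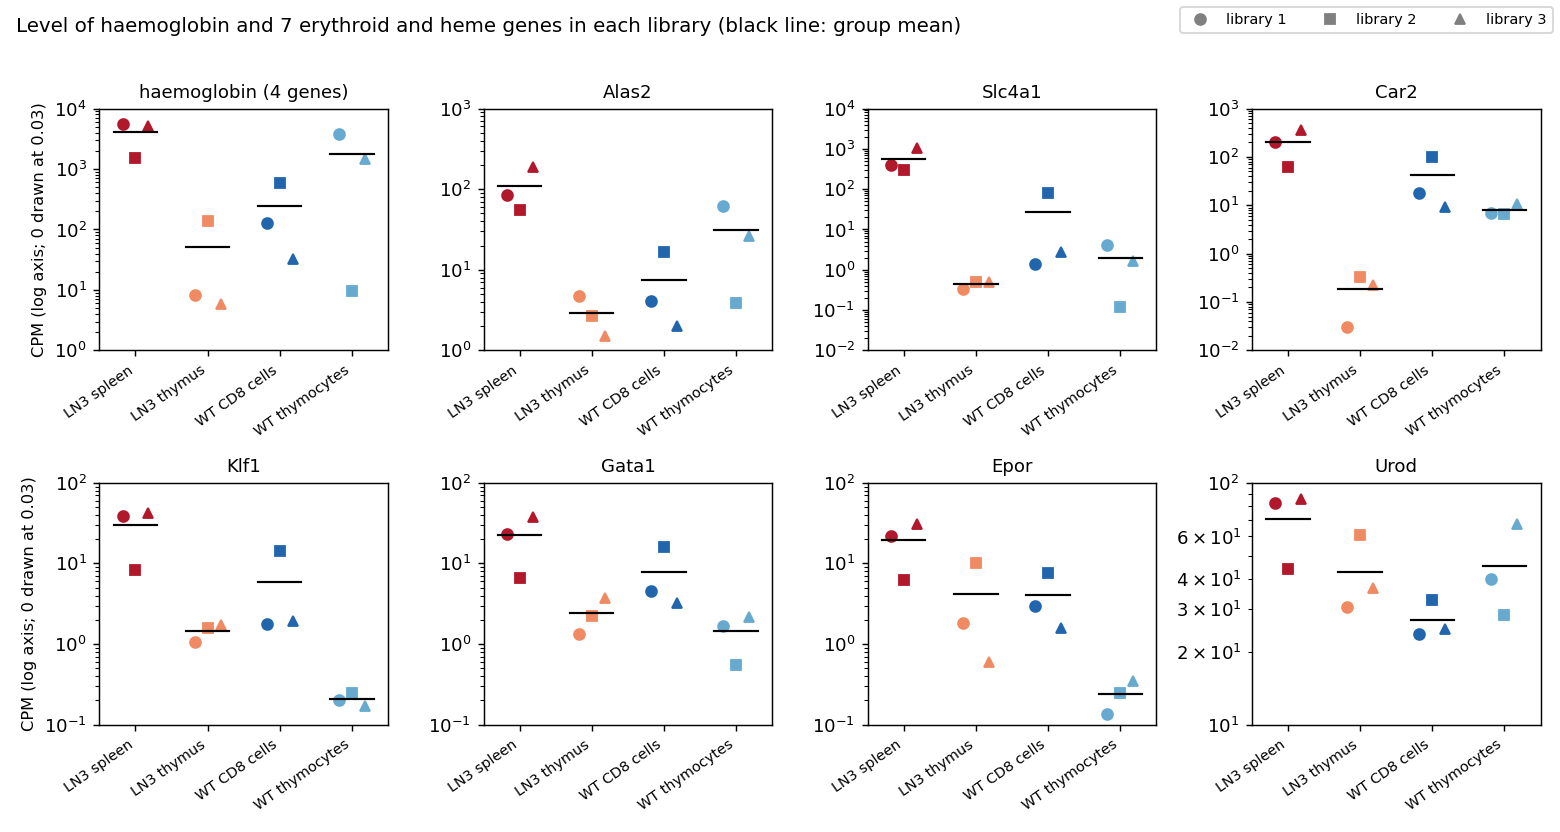
CPM (log axis, 0 drawn at 0.03) of summed haemoglobin and 7 members in each library, with a black line at the group mean. LN3 spleen lay above LN3 thymus in every library for every panel except Urod and Epor, and haemoglobin in WT thymocytes fell into 2 high libraries (3860 and 1470 CPM) and 1 low library (9.74 CPM).

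The 8 heme synthesis genes were present in every library. Between the 2 leukaemic organs edgeR called 1 of the 8, Alas2, higher in LN3 spleen, where 0.694% of all tested genes rose. Of the 8, 7 had an unadjusted p below 0.05 and DESeq2 called 4. Alas2 (chrX:150547417-150570622), the erythroid form of the first enzyme, had 85.2, 55.3 and 187 CPM in LN3 spleen, 4.66, 2.64 and 1.52 in LN3 thymus, 4.04, 16.6 and 1.99 in WT CD8 cells and 62.5, 3.86 and 26.4 in WT thymocytes. All LN3 spleen libraries lay above all LN3 thymus and WT CD8 libraries, and LN3 thymus overlapped with WT thymocytes at WT thymocyte 2. Alas2 rose in LN3 spleen against LN3 thymus (log2 difference 5.22, SE 1.05, adjusted p = 0.0421, a call lost in 8 of the 12 fits with a library left out, with adjusted p up to 0.181) and against WT CD8 cells (log2 difference 3.85, SE 0.97, adjusted p = 0.0104). It fell in LN3 thymus against WT thymocytes (log2 difference −3.40, SE 0.97, adjusted p = 0.0401), a call that was lost without any single LN3 thymus library and without WT thymocyte 1 or 3 (adjusted p up to 0.175).

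Of the 8 heme synthesis genes, 6 rose in LN3 spleen against WT CD8 cells, where 17.9% of all tested genes rose, and Uros and Ppox did not pass. Alad, the enzyme after Alas2, had 98, 42.9 and 136 CPM in LN3 spleen, 23.9, 34.1 and 26.3 in LN3 thymus, 12.1, 22.4 and 9.57 in WT CD8 cells and 8.91, 6.68 and 18.8 in WT thymocytes. It was higher in LN3 spleen than in WT CD8 cells without overlap (log2 difference 2.65, SE 0.49, adjusted p = 0.0019). Fech, which inserts iron into the ring, had 117, 81.6 and 214 CPM in LN3 spleen, 23.4, 35.9 and 48.8 in LN3 thymus, 18.4, 37.9 and 19.3 in WT CD8 cells and 25.2, 12.1 and 26.2 in WT thymocytes. Again the 3 LN3 spleen libraries lay above the WT CD8 libraries (log2 difference 2.45, SE 0.45, adjusted p = 0.00185), and above the LN3 thymus libraries without passing the test there (log2 difference 1.93, SE 0.45, adjusted p = 0.0751). Slc25a37, mitoferrin, which carries iron into the mitochondrion, had 226, 256 and 404 CPM in LN3 spleen, 180, 164 and 138 in LN3 thymus, 60.1, 90.4 and 53.7 in WT CD8 cells and 205, 178 and 260 in WT thymocytes. It rose in LN3 spleen against WT CD8 cells (log2 difference 2.12, SE 0.30, adjusted p = 0.000316) and fell in WT CD8 cells against WT thymocytes (log2 difference −1.65, SE 0.29, adjusted p = 0.00238), in both cases without overlap. WT CD8 cells were the low group for this gene.

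The other members of the chain were Urod, Cpox, Uros and Ppox. Urod had 82.3, 44 and 85.7 CPM in LN3 spleen, 30.7, 60.8 and 36.6 in LN3 thymus, 23.7, 32.8 and 24.8 in WT CD8 cells and 40.2, 28.4 and 67.3 in WT thymocytes, and rose in LN3 spleen against WT CD8 cells (log2 difference 1.38, SE 0.38, adjusted p = 0.0151; without LN3 spleen 3, 1.22, adjusted p = 0.0613). Cpox had 89.5, 38.5 and 154 CPM in LN3 spleen, 23.2, 21.7 and 17.3 in LN3 thymus, 24.7, 64.4 and 27.8 in WT CD8 cells and 24, 21.9 and 27.2 in WT thymocytes, and stood just inside the threshold in the same comparison (log2 difference 1.27, SE 0.45, adjusted p = 0.0499; without LN3 spleen 3, 0.72, adjusted p = 0.268). The Cpox groups overlapped, because WT CD8 2 (64.4 CPM) lay above LN3 spleen 2 (38.5 CPM). Against LN3 thymus all LN3 spleen libraries were higher for Cpox, without passing the test (log2 difference 2.18, SE 0.47, adjusted p = 0.0578). Uros ran from 9.73 to 29.3 CPM and Ppox from 28.5 to 97.9 CPM over the 12 libraries. The highest library for both was LN3 spleen 3, with log2 differences against WT CD8 cells of 0.72 (adjusted p = 0.165) for Uros and 0.64 (adjusted p = 0.135) for Ppox.

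The genes of the red cell membrane and surface differed most between the leukaemic organs: 14 of 15 rose in LN3 spleen against LN3 thymus, all but Sptb, with a median log2 difference of 6.96. Of all tested genes, 0.694% rose in that comparison. Slc4a1 (chr11:102348820-102365281), band 3, the anion exchanger of the red cell membrane, had 389, 301 and 1040 CPM in LN3 spleen, 0.336, 0.496 and 0.506 in LN3 thymus, 1.42, 78.6 and 2.71 in WT CD8 cells and 4.05, 0.122 and 1.63 in WT thymocytes. No LN3 thymus library reached 1 CPM, and every LN3 spleen library was at 301 CPM or more. Slc4a1 averaged 578 ± 406 CPM in LN3 spleen and 0.446 ± 0.0956 CPM in LN3 thymus (SD, n = 3 each; log2 difference 10.33, SE 1.82, adjusted p = 0.0333). It rose in LN3 spleen against WT CD8 cells as well (log2 difference 4.39, SE 1.36, adjusted p = 0.0294; without LN3 spleen 3, 3.64, adjusted p = 0.0822), where WT CD8 2 stood far above its 2 partners. In WT CD8 cells against WT thymocytes the log2 difference was 3.84 (adjusted p = 0.0852), and 0.13 without WT CD8 2.

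Proteins that tie band 3 to the skeleton followed. Ank1, ankyrin, had 101, 53.3 and 204 CPM in LN3 spleen, 0.923, 0.826 and 0.703 in LN3 thymus, 4.58, 42.2 and 3.39 in WT CD8 cells and 0.81, 0.367 and 0.859 in WT thymocytes. The LN3 spleen libraries lay above those of both other groups compared with them, and Ank1 rose against LN3 thymus (log2 difference 7.19, SE 1.02, adjusted p = 0.0131) and against WT CD8 cells (log2 difference 2.83, SE 0.81, adjusted p = 0.0195; without LN3 spleen 3, 2.20, adjusted p = 0.0897). It also rose in WT CD8 cells against WT thymocytes (log2 difference 4.64, SE 0.96, adjusted p = 0.00598). Epb42, protein 4.2, had 23.2, 21.6 and 68.7 CPM in LN3 spleen, 3.56, 1.16 and 1.35 in LN3 thymus, 2.78, 10.8 and 2.45 in WT CD8 cells and 1.48, 3.61 and 0.859 in WT thymocytes, and rose in LN3 spleen against LN3 thymus (log2 difference 4.21, SE 0.80, adjusted p = 0.0347) and against WT CD8 cells (log2 difference 2.82, SE 0.75, adjusted p = 0.0133; without LN3 spleen 3, 2.07, adjusted p = 0.0761). Sptb, beta spectrin, stood out for its level in LN3 thymus, at 29.1, 13.3 and 13.3 CPM, against 4.66, 5.21 and 7.99 CPM in WT thymocytes. Its log2 differences did not pass in LN3 thymus against WT thymocytes (log2 difference 1.65, SE 0.84, adjusted p = 0.25) or in LN3 spleen against LN3 thymus (log2 difference 2.36, SE 0.84, adjusted p = 0.341), although each pair of groups was without overlap.

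Genes of blood group proteins were also high in LN3 spleen. Rhag, the glycoprotein of the Rh complex, had 38.2, 33.9 and 146 CPM in LN3 spleen, 0.503, 0.165 and 0.956 in LN3 thymus, 1.58, 16.8 and 1.22 in WT CD8 cells and 0.607, 0.857 and 0.0859 in WT thymocytes. Rhd, its partner, had 39.3, 14 and 86.4 CPM in LN3 spleen, 0.377, 0.413 and 0.366 in LN3 thymus, 1.2, 12.4 and 1.64 in WT CD8 cells and 0.81, 0.735 and 0.601 in WT thymocytes. Kel, the Kell antigen, had 29.3, 19.2 and 89.9 CPM in LN3 spleen, 0.923, 0 and 0.112 in LN3 thymus, 0.818, 11.7 and 1.4 in WT CD8 cells and 0.607, 0.0612 and 0.258 in WT thymocytes. In each of these 3 genes every LN3 spleen library was above every LN3 thymus and every WT CD8 library, and WT CD8 2 was the highest of its group. The log2 differences in LN3 spleen against LN3 thymus were 6.94 (adjusted p = 0.027) for Rhag, 6.91 (adjusted p = 0.0151) for Rhd and 6.96 (adjusted p = 0.036) for Kel, and against WT CD8 cells 3.47 (adjusted p = 0.0193), 3.19 (adjusted p = 0.0118) and 3.31 (adjusted p = 0.0369) in the same order. Without LN3 spleen 3 the values against WT CD8 cells were 2.46 (adjusted p = 0.11), 2.38 (adjusted p = 0.0647) and 2.39 (adjusted p = 0.172), and no call was left. In WT CD8 cells against WT thymocytes the calls of Rhag, at 3.60 (adjusted p = 0.0421), and Rhd, at 2.82 (adjusted p = 0.0448), rested on WT CD8 2, without which the log2 differences were 1.37 (adjusted p = 0.366) and 0.99 (adjusted p = 0.388). Ermap, the Scianna antigen, had 84.5, 47.9 and 189 CPM in LN3 spleen, 1.43, 0.413 and 1.24 in LN3 thymus, 7.26, 56.4 and 8.22 in WT CD8 cells and 0.675, 1.35 and 0.601 in WT thymocytes. Icam4, the Landsteiner-Wiener antigen, had 3.4, 0.752 and 4.38 CPM in LN3 spleen, 0.0839, 0 and 0.0562 in LN3 thymus, 0.6, 0.979 and 0.306 in WT CD8 cells and 0, 0.0612 and 0 in WT thymocytes. Ermap was higher in LN3 spleen than in LN3 thymus without overlap (log2 difference 6.63, SE 0.94, adjusted p = 0.0131), and so was Icam4, with 4 counts in all of LN3 thymus (log2 difference 5.56, SE 0.93, adjusted p = 0.0248). Against WT CD8 cells the log2 differences were 2.16 (adjusted p = 0.0446) for Ermap and 2.16 (adjusted p = 0.0366) for Icam4, with overlap at WT CD8 2, and both calls were lost without LN3 spleen 3, at 1.47 (adjusted p = 0.207) and 1.69 (adjusted p = 0.155). In WT CD8 cells against WT thymocytes Ermap rose (log2 difference 4.74, SE 0.89, adjusted p = 0.00346), and Icam4, called as well, had 56 counts against 1, a ratio of 25 (95% counting interval 4.31 to 1010), a call lost without WT CD8 2 (adjusted p = 0.0635).

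The carbonic anhydrases and the water channel of red cells came next. Car1 (chr3:14766214-14808365), an abundant red cell carbonic anhydrase, had 140, 34.9 and 341 CPM in LN3 spleen, 0.168, 0.0826 and 0.0844 in LN3 thymus, 16.2, 67.7 and 13.7 in WT CD8 cells and 0.0675, 0 and 0 in WT thymocytes. In both thymic groups every library was below 1 CPM, while all LN3 spleen and WT CD8 libraries were above 10 CPM. Car1 rose in LN3 spleen against LN3 thymus (log2 difference 10.50, SE 1.14, adjusted p = 0.00624) and against WT CD8 cells (log2 difference 2.40, SE 0.73, adjusted p = 0.0262; without LN3 spleen 3, 1.42, adjusted p = 0.172). WT CD8 cells held 3066 counts of it and WT thymocytes 1, a ratio of 1370 (95% counting interval 246 to 54200) that was also called. Car2 (chr3:14886269-14900770), a carbonic anhydrase of red cells and several other cell types, had 207, 60.8 and 354 CPM in LN3 spleen, 0, 0.33 and 0.225 in LN3 thymus, 18.2, 102 and 9.33 in WT CD8 cells and 6.95, 6.61 and 10.6 in WT thymocytes. WT thymocytes differed from Car1 in this gene: all 3 held 6.61 CPM or more, above the 3 LN3 thymus libraries. Car2 fell in LN3 thymus against WT thymocytes (log2 difference −5.52, SE 1.13, adjusted p = 0.00782) and rose in LN3 spleen against LN3 thymus (log2 difference 10.21, SE 1.25, adjusted p = 0.00705), and against WT CD8 cells the log2 difference of LN3 spleen was 2.26 (adjusted p = 0.0534). Aqp1, a water channel of red cells and of endothelium, had 173, 58.1 and 323 CPM in LN3 spleen, 0.252, 1.07 and 1.1 in LN3 thymus, 6.38, 68.1 and 6.89 in WT CD8 cells and 2.43, 0.245 and 9.53 in WT thymocytes, and rose in LN3 spleen against LN3 thymus (log2 difference 7.85, SE 1.44, adjusted p = 0.0345). Against WT CD8 cells its log2 difference was 2.77 (adjusted p = 0.0756), with WT CD8 2 (68.1 CPM) above LN3 spleen 2 (58.1 CPM).

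The last 3 surface genes were Tspo2, Tmcc2 and Cldn13. Tspo2, a red cell relative of the translocator protein, had 6.36, 5.49 and 19.9 CPM in LN3 spleen, 0.0419, 0.0826 and 0.197 in LN3 thymus, 0.655, 5.62 and 1.57 in WT CD8 cells and 0.337, 0.245 and 0.258 in WT thymocytes, and rose in LN3 spleen against LN3 thymus (log2 difference 6.44, SE 0.97, adjusted p = 0.0151) and in WT CD8 cells against WT thymocytes (log2 difference 3.21, SE 0.86, adjusted p = 0.024; without WT CD8 2, 2.00, adjusted p = 0.128). Tmcc2, a transmembrane protein with coiled coils, had 39.3, 114 and 212 CPM in LN3 spleen, 0.252, 0.33 and 0.506 in LN3 thymus, 3.06, 15.6 and 2.23 in WT CD8 cells and 2.36, 2.08 and 2.92 in WT thymocytes. LN3 spleen 1 was the lowest of its group for 2 members, Tmcc2 and Slc25a37. Tmcc2 rose in LN3 spleen against LN3 thymus (log2 difference 8.32, SE 0.95, adjusted p = 0.00624) and against WT CD8 cells (log2 difference 4.12, SE 0.75, adjusted p = 0.00168). In LN3 thymus against WT thymocytes its groups did not overlap and the test did not pass (log2 difference −2.69, SE 0.83, adjusted p = 0.0561). Cldn13, a claudin, had 27, 7.81 and 49.1 CPM in LN3 spleen, 0.0419, 0 and 0.0844 in LN3 thymus, 0.218, 6.22 and 0.197 in WT CD8 cells and 0, 0 and 0 in WT thymocytes. It rose in LN3 spleen against LN3 thymus (log2 difference 8.90, SE 1.67, adjusted p = 0.0414) and against WT CD8 cells (log2 difference 3.65, SE 1.21, adjusted p = 0.0417; without LN3 spleen 3, 2.96, adjusted p = 0.14). WT CD8 cells, mainly library 2, were at least 10.3-fold higher than WT thymocytes, which had no count (floor of 3 counts per library), and the gene was called there, but not without WT CD8 2 (adjusted p = 0.0882).

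**Figure D3:**
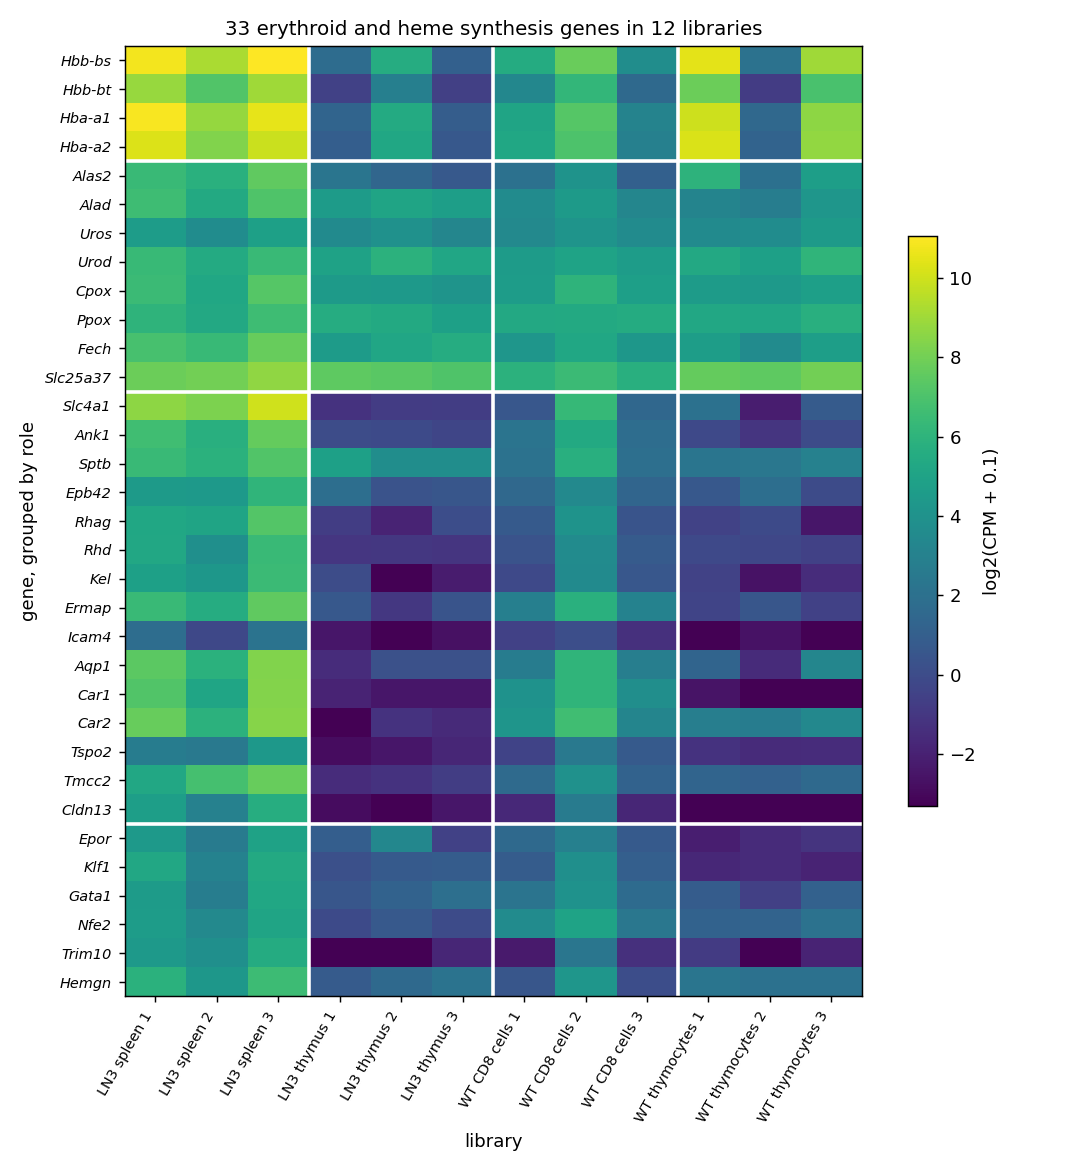
Log2(CPM + 0.1) of the 33 members (down, by role) in the 12 libraries (across, by group), with yellow high and dark blue low. LN3 spleen is high for all roles, and WT CD8 2 is the highest of its group for 32 of the 33 members. WT thymocytes 1 and 3 are high for globins (1410 and 526 CPM of Hbb-bs) but not for Slc4a1 (4.05 and 1.63 CPM).

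Among the receptor and the factors, 3 of 6 rose in LN3 spleen against LN3 thymus (Klf1, Nfe2 and Trim10), where 0.694% of all tested genes rose. Against WT CD8 cells 3 rose in LN3 spleen (Klf1, Trim10 and Hemgn), where 17.9% of all tested genes rose. Epor (chr9:21958897-21963576), the erythropoietin receptor, had 22, 6.16 and 31 CPM in LN3 spleen, 1.85, 10.2 and 0.591 in LN3 thymus, 2.95, 7.58 and 1.57 in WT CD8 cells and 0.135, 0.245 and 0.344 in WT thymocytes. All 3 LN3 thymus libraries were above all 3 WT thymocyte libraries, and LN3 thymus 2 was the highest of its group. Epor rose in LN3 thymus against WT thymocytes (log2 difference 4.10, SE 1.11, adjusted p = 0.0316). This call was lost without LN3 thymus 2 and without WT thymocyte 1, 2 or 3, with adjusted p up to 0.16. Of all libraries left out, LN3 thymus 2 gave the lowest log2 difference, 2.32. Epor also rose in WT CD8 cells against WT thymocytes (log2 difference 4.06, SE 1.10, adjusted p = 0.0256; without WT CD8 2, 3.22, adjusted p = 0.0912). LN3 spleen and LN3 thymus overlapped for Epor (log2 difference 2.25, SE 0.92, adjusted p = 0.467).

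Klf1, the erythroid factor that turns on adult beta globin, had 39.1, 8.3 and 42.4 CPM in LN3 spleen, 1.05, 1.57 and 1.72 in LN3 thymus, 1.75, 14.2 and 1.92 in WT CD8 cells and 0.202, 0.245 and 0.172 in WT thymocytes. LN3 spleen was above LN3 thymus in every library (log2 difference 4.37, SE 0.86, adjusted p = 0.0376), and Klf1 rose against WT CD8 cells (log2 difference 2.32, SE 0.78, adjusted p = 0.0385; without LN3 spleen 3, 1.98, adjusted p = 0.127) with WT CD8 2 above LN3 spleen 2. WT CD8 cells were above WT thymocytes (log2 difference 4.81, SE 0.97, adjusted p = 0.00532). Gata1, a factor shared by erythroid, megakaryocytic and mast cells, had 23.5, 6.65 and 38 CPM in LN3 spleen, 1.34, 2.23 and 3.68 in LN3 thymus, 4.53, 15.9 and 3.21 in WT CD8 cells and 1.69, 0.551 and 2.15 in WT thymocytes. By edgeR on all 12 libraries Gata1 was called in no comparison, with log2 differences of 3.22 (adjusted p = 0.0961) in LN3 spleen against LN3 thymus and 2.44 (adjusted p = 0.0512) in WT CD8 cells against WT thymocytes, both without overlap. DESeq2 called Gata1 in both, and edgeR did with some single libraries left out. Nfe2, shared with megakaryocytes, had 24.2, 10.8 and 33.4 CPM in LN3 spleen, 0.839, 1.49 and 0.872 in LN3 thymus, 12.2, 32.6 and 5.16 in WT CD8 cells and 2.16, 2.27 and 4.12 in WT thymocytes. It rose in LN3 spleen against LN3 thymus (log2 difference 4.44, SE 0.70, adjusted p = 0.0169) and in WT CD8 cells against WT thymocytes (log2 difference 2.55, SE 0.64, adjusted p = 0.017; without WT CD8 2, 1.61, adjusted p = 0.0997), and LN3 spleen and WT CD8 cells overlapped (log2 difference 0.45, SE 0.59, adjusted p = 0.57). Trim10, an erythroid RING finger protein, had 21.2, 14.5 and 46.7 CPM in LN3 spleen, 0, 0 and 0.197 in LN3 thymus, 0.109, 4.99 and 0.306 in WT CD8 cells and 0.472, 0 and 0.172 in WT thymocytes. It rose in LN3 spleen against LN3 thymus (log2 difference 8.22, SE 1.59, adjusted p = 0.036) and against WT CD8 cells (log2 difference 3.91, SE 1.22, adjusted p = 0.0291; without LN3 spleen 3, 3.30, adjusted p = 0.105). Hemgn, hemogen, had 58.3, 19.3 and 94.3 CPM in LN3 spleen, 1.64, 2.89 and 4.33 in LN3 thymus, 1.36, 18.5 and 0.94 in WT CD8 cells and 4.72, 4.1 and 3.95 in WT thymocytes, and rose in LN3 spleen against WT CD8 cells (log2 difference 3.04, SE 0.95, adjusted p = 0.0285; without LN3 spleen 3, 2.48, adjusted p = 0.108).

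The organ difference of LN3 cells against wild type was tested as an interaction, the log2 difference of LN3 spleen against WT CD8 cells minus that of LN3 thymus against WT thymocytes. It was called for 4 of the 33 members, all higher, where 3.29% of all tested genes were higher and 0.895% lower: Alas2 (log2 difference 7.25, SE 1.37, adjusted p = 0.0104), Car2 (log2 difference 7.78, SE 1.40, adjusted p = 0.00802), Slc25a37 (log2 difference 2.53, SE 0.41, adjusted p = 0.00499) and Tmcc2 (log2 difference 6.81, SE 1.11, adjusted p = 0.00518). All 4 were called whichever of the 12 libraries was left out. The 4 globins had interactions of 9.16 to 9.24, with adjusted p of 0.0596 to 0.0694. Without WT CD8 2 the members called numbered 14, by DESeq2 13, without LN3 thymus 2 7 and without WT thymocyte 2 8. Testing without the filter on low counts left 2, Slc25a37 and Tmcc2.

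Set against haemoglobin in the same library, the other genes did not come in 1 ratio. Slc4a1 had 71.1, 197 and 205 counts per 1000 haemoglobin counts in LN3 spleen, against 1.05 and 1.11 in WT thymocytes 1 and 3, the WT thymocyte libraries rich in haemoglobin. Alas2 had 15.6, 36.2 and 36.8 per 1000 in LN3 spleen and 16.2 and 18 per 1000 in WT thymocytes 1 and 3. WT thymocytes 1 and 3 were near LN3 spleen 1 in the ratio of Alas2 to haemoglobin and below LN3 spleen 2 and 3, and in that of Slc4a1 they were below all 3 LN3 spleen libraries. The 15 membrane and surface genes together had 254, 544 and 642 counts per 1000 in LN3 spleen and 6.69 and 24.7 in WT thymocytes 1 and 3. In WT CD8 cells, Slc4a1 had 11.1, 136 and 83.3 per 1000, Alas2 31.6, 28.7 and 61.1, and the 15 genes 541, 949 and 1810. LN3 thymus 2 had 1666 haemoglobin counts, with 3.6 of Slc4a1 and 19.2 of Alas2 per 1000. The remaining libraries held 194 (LN3 thymus 1), 209 (LN3 thymus 3) and 159 (WT thymocyte 2) haemoglobin counts, and their ratios rest on those few counts. In LN3 thymus 1, Sptb alone gave 29.1 of the 38 CPM of the 15 genes.

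**Figure D4:**
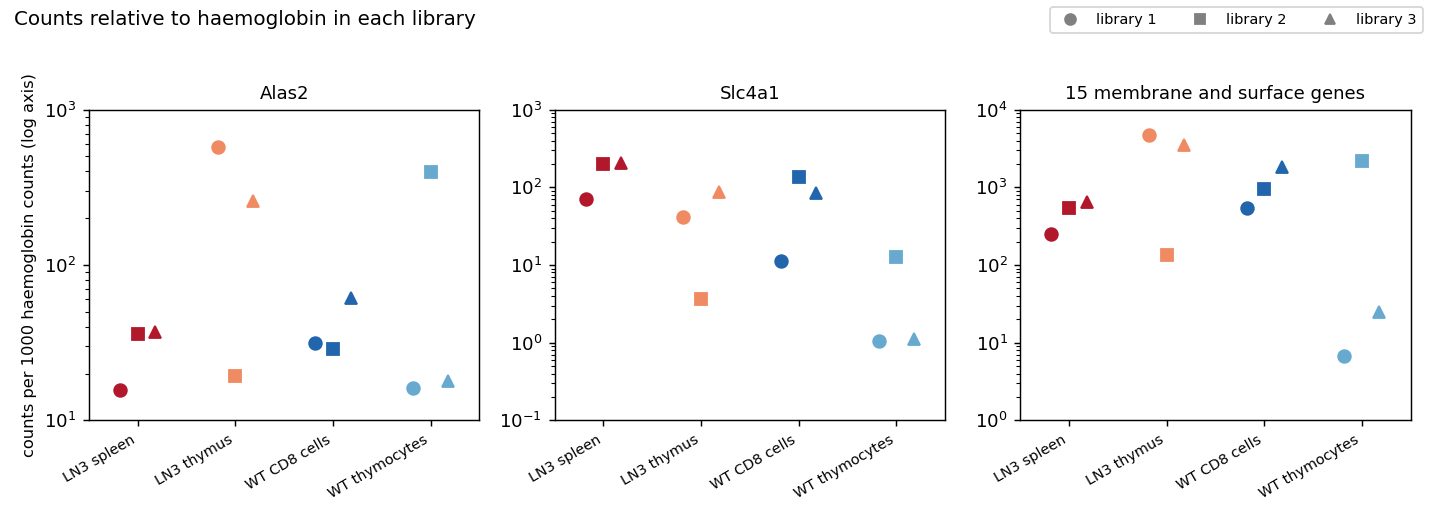
Counts of Alas2, Slc4a1 and the 15 membrane and surface genes per 1000 haemoglobin counts in each library (log axes), by group. WT thymocytes 1 and 3 (16.2 and 18) lay beside LN3 spleen 1 (15.6) for Alas2, and at 1.05 and 1.11 they lay below all LN3 spleen libraries (71.1 to 205) for Slc4a1.

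Members other than the globins went along with haemoglobin to different degrees. Across the 12 libraries, log2 CPM deviations from the group means had a median Pearson correlation of 0.399 with those of summed haemoglobin over the 29 other members, against −0.0328 over all tested genes. The correlation was over 0.5 for 12 of the 29 (41.4%), against 16.4% of all tested genes. Alas2 was at 0.823, Aqp1 at 0.757, Urod at 0.733 and Slc4a1 at 0.716, while Epb42 was at −0.209. All points share their libraries and the scaling, so the values are a description. Haemoglobin spread 397-fold within WT thymocytes and 3.58-fold within LN3 spleen, so the WT thymocyte libraries weigh most in these correlations. There Epb42 had 22, 59 and 10 counts. Among the 10 genes outside the list with the highest correlation were 1190005I06Rik (0.953), Ube2l6 (0.948), Txnrd3 (0.941), Gm36161 (0.876), A930029G22Rik (0.858), Pdzk1ip1 (0.857), Gm2274 (0.855), Pde10a (0.854) and Slc47a2 (0.846). The first of them had at most 30 counts in a library, so that its correlation rests on few counts.

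Of 29 other genes of heme and iron handling, all tested, 2 rose in LN3 spleen against LN3 thymus (0.694% of all tested genes), Blvrb and Abcb10, with a median log2 difference of 0.37 for the list, and with Blvrb, a biliverdin reductase, at 48.4, 11 and 60.8 CPM in LN3 spleen, against 1.26, 2.97 and 2.11 in LN3 thymus (log2 difference 4.26, SE 0.74, adjusted p = 0.027). Against WT CD8 cells, 15 of the 29 rose, where 17.9% of all tested genes rose, with a median log2 difference of 0.91. Tfrc, the transferrin receptor, which dividing cells of many kinds also use, had the largest difference, at 286, 398 and 904 CPM in LN3 spleen, against 46.5, 127 and 52.2 in WT CD8 cells (log2 difference 2.82, SE 0.60, adjusted p = 0.00407). In LN3 thymus against WT thymocytes 3 of the 29 rose, where 6.06% of all tested genes rose, Hmox1 (heme oxygenase), Tfrc and Slc11a2 (an iron importer). Hmox1 had 4.78, 13 and 36.3 CPM in LN3 thymus and 2.02, 1.22 and 4.04 in WT thymocytes (log2 difference 2.92, SE 0.85, adjusted p = 0.0444). Against WT thymocytes, WT CD8 cells had 2 higher and 2 lower genes of the 29, where 7.24% of all tested genes rose and 8.48% fell, Hmox1 highest (log2 difference 5.40, SE 0.94, adjusted p = 0.00215) and Bach1, a heme-sensing repressor, lowest (log2 difference −1.39, SE 0.30, adjusted p = 0.00759).

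Of 29 other erythroid genes, 25 were tested, and 11 rose in LN3 spleen against LN3 thymus, where 0.694% of all tested genes rose, with a median log2 difference of 3.02. Among the 11 were Dmtn, Add2, Xk, Tal1, Gfi1b, Bcl11a, Hbq1b, Tfr2 and Mfsd2b. Against WT CD8 cells 10 rose, where 17.9% of all tested genes rose, and Hbq1b, a theta globin, was the largest, at 1.74, 2.23 and 5.23 CPM in LN3 spleen, against 0, 0.253 and 0.0219 in WT CD8 cells (log2 difference 4.93, SE 0.99, adjusted p = 0.00421). In LN3 thymus against WT thymocytes 2 of the 25 rose and 3 fell, against 6.06% and 5.21% of all tested genes. Sox6, a factor that represses embryonic globin in erythroid cells, had 9.35, 16.8 and 0.478 CPM in LN3 thymus and 2 counts in WT thymocytes, a ratio of 133 (95% counting interval 36.5 to 1100), and Xk fell the most (log2 difference −5.35, SE 0.85, adjusted p = 0.0018). In WT CD8 cells against WT thymocytes 8 rose and 3 fell, against 7.24% and 8.48% of all tested genes. Add2, beta adducin, had 713 counts against 3 there, a ratio of 106 (36.2 to 516). WT CD8 2 held 638 of the 713 counts, and the WT CD8 libraries had 1.31, 20.2 and 1.11 CPM. Bpgm fell the most in the same comparison (log2 difference −1.43, SE 0.39, adjusted p = 0.0258). The embryonic globins Hbb-y and Hba-x had no count in any library, and Hbb-bh1 had 2 counts in LN3 spleen and 1 in WT CD8 cells.

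Markers of other spleen cells were measured in the same libraries. The 10 granulocyte and monocyte markers summed to 290 to 2130 CPM in LN3 spleen and 27.8 to 167 in LN3 thymus, and edgeR called none of them in that comparison, where 9 had an unadjusted p below 0.05 and DESeq2 called 6, with S100a8 at 353, 47.7 and 103 CPM in LN3 spleen and 0.377, 4.46 and 1.04 in LN3 thymus. They reached 415 to 2880 CPM in WT CD8 cells and 59.7 to 189 in WT thymocytes, and the highest, 2880, was WT CD8 2, the library highest for 32 of the 33 members. In WT CD8 3, the library at 415 CPM, Ly6c2 alone gave 252 CPM. LN3 spleen 3, highest for 31 members, was at 428 and LN3 spleen 1 at 2130. The 10 red pulp macrophage markers summed to 266 to 363 CPM in LN3 spleen, 38.4 to 290 in LN3 thymus, 84.2 to 756 in WT CD8 cells and 44.3 to 119 in WT thymocytes. The 8 B cell markers summed to 286 to 2140 CPM in LN3 spleen and 288 to 468 in LN3 thymus. None of these 3 lists had a gene at 0 in all libraries of a group. Of the platelet and megakaryocyte markers, which share Gata1 and Nfe2 with erythroid cells, Gp1bb had no count in LN3 thymus. The list summed to 44.5 to 75.9 CPM in LN3 spleen and 25.2 to 76.5 in LN3 thymus. Itgb3 alone gave 43.4, 49.8 and 22.2 CPM of this in LN3 spleen and 18, 48.9 and 66.4 in LN3 thymus. Of the 8 mast cell and basophil markers, Mcpt8, Fcer1a and Tpsb2 had no count in LN3 thymus, Mcpt8 and Fcer1a had none in WT thymocytes, and the list summed to 10.8 to 35.1 CPM in LN3 spleen and 3.26 to 7.02 in LN3 thymus. The part of these cells in the results on Gata1, Nfe2 and the other members was not tested.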

How the data were processed

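Poly(A) RNA of 12 mouse samples was sequenced as read pairs, per the labels. The authors deposited a table of estimated counts per gene. The submitters' processing notes name FastQC, kallisto 0.46.1, DESeq2 and GRCm38, and the sources used here give neither the annotation release nor the strand setting. Kallisto shares read pairs between near-identical copies by estimation. All 652212 deposited estimated counts were whole, and rounding was applied anyway.

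Counts were fitted with edgeR 4.0.16 in R 4.3.3: filterByExpr, TMM scaling, a model of 4 group means fitted to the 12 libraries (8 residual degrees of freedom, common biological coefficient of variation 0.441), robust dispersions and the quasi-likelihood test, with Benjamini-Hochberg adjustment over 20897 genes and a threshold of 0.05. SE is the log2 difference over the root of the F statistic. Of 54351 rows, 16997 had no count. No library pair was identical, and every library column was assigned by name. Shares have exact Clopper-Pearson 95% intervals, and floors are 3 counts per library. The fitting steps were tested on simulated data.

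Members and lists were chosen with earlier results of these data known. All members were to be accounted for by role, with values in every library for those called in any comparison and for Hbb-bs, Hba-a1, Alas2, Slc4a1, Gata1, Klf1 and Epor. From the other lists the called gene with the largest difference in each direction was named, with genes among the 10 most like summed haemoglobin; some items that this rule picks are not reported here. Dmtn and further called genes of those lists, and the T cell, proliferation and S100a8 values, were named beside the counts after their values were seen. Alternatives were DESeq2 1.42.0, library totals, upper-quartile factors, no filter, summed globin copies, a replicate block, only the 2 groups compared, and leaving out each library. Library totals for the order of libraries within a group were chosen after seeing the data. The 1 listed gene without a row was left out.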

Additional observations from a re-analysis of the deposited data

Results flagged for a closer look

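For 4 members the log2 difference of LN3 against wild-type cells differed between spleen and thymus by edgeR's quasi-likelihood test of that difference, with Benjamini-Hochberg adjustment over all genes. Alas2 differed by 7.25 (SE 1.37, adjusted p = 0.0104), from 3.85 in LN3 spleen against WT CD8 cells and −3.40 in LN3 thymus against WT thymocytes. Car2 differed by 7.78 (SE 1.40, adjusted p = 0.00802), from 2.26 in LN3 spleen against WT CD8 cells, which did not pass on its own, and −5.52 in LN3 thymus against WT thymocytes. Slc25a37 differed by 2.53 (SE 0.41, adjusted p = 0.00499), from 2.12 in the spleen and −0.41 in the thymus. Tmcc2 differed by 6.81 (SE 1.11, adjusted p = 0.00518), from 4.12 in the spleen and −2.69 in the thymus. All 4 were called whichever of the 12 libraries was left out. The wild-type samples compared were CD8 cells in the spleen and total thymocytes in the thymus, so organ and cell type cannot be told apart.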

How the results depend on the processing

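Directions were followed for the members called in each comparison and, outside the interaction, for Hbb-bs, Hba-a1, Alas2, Slc4a1, Gata1, Klf1 and Epor. None of these changed direction under any alternative. Members that were not called could change. In WT CD8 cells against WT thymocytes, leaving out WT CD8 2 moved the log2 difference of Hemgn from 0.70 to −1.90 and that of Sptb from 1.80 to −0.58. The members called in LN3 thymus against WT thymocytes (3) numbered 9 by DESeq2, 5 with library totals, 5 with upper-quartile factors and 0 without the filter (edgeR, with 10 at an unadjusted p below 0.05). For LN3 spleen against WT CD8 cells (20) they numbered 10 with library totals and 10 without the filter. For LN3 spleen against LN3 thymus (18) library totals gave 9. For the interaction (4) DESeq2 gave 13 and no filter 2. WT thymocytes had 15 members highest in library 3, and 8 with library totals, which moved the median log2 difference of all genes to −0.50 for LN3 spleen against WT CD8 cells and −0.18 for LN3 spleen against LN3 thymus. The causes were not tested.

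Leaving out 1 library, the counts ranged from 1 to 6 for LN3 thymus against WT thymocytes, 5 to 25 for LN3 spleen against WT CD8 cells, 0 to 21 for LN3 spleen against LN3 thymus (edgeR; at the 0, 30 members had an unadjusted p below 0.05), 5 to 15 for WT CD8 cells against WT thymocytes and 4 to 14 for the interaction. Mean haemoglobin shares ranged from 0.282 to 0.428% in LN3 spleen, 0.000757 to 0.00561% in LN3 thymus, 0.00924 to 0.0416% in WT CD8 cells and 0.0634 to 0.286% in WT thymocytes.

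The titles number the LN3 samples as T-ALL 1 to 3 in thymus and again in spleen, without saying that a number marks the same animal. The wild-type samples of each group are numbered 1 to 3 as well. Deviations of same-numbered libraries correlated between −0.528 and 0.336, in no comparison all above 0.1, so the numbers were not taken as a pairing. With 3 libraries in a group, such correlations cannot exclude that the T-ALL numbers pair the organs. With the number as a replicate block the counts were 1 for LN3 thymus against WT thymocytes, 11 for LN3 spleen against WT CD8 cells, 7 for LN3 spleen against LN3 thymus, 6 for WT CD8 cells against WT thymocytes and 4 for the interaction. For single members, 184 of 900 values with a library left out and 95 of 517 under other alternatives lost their call, and 13 and 17 gained one. Both totals include genes not called with all 12 libraries, which could not lose a call, so the share lost among called members was larger. Few counts limit values in LN3 thymus and WT thymocytes, where several members had under 10 counts in a group.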

Other observations

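Markers of other blood cells were tested in the same comparisons. Mast cell and basophil markers rose in WT CD8 cells against WT thymocytes for 6 of 7 tested, where 7.24% of all tested genes rose, with Mcpt8, a basophil protease, at 255 counts against none, at least 11.6-fold higher (floor of 3 counts per library). In LN3 spleen against WT CD8 cells 2 of the 7 fell, where 13% of all tested genes fell, Cma1, a mast cell chymase, the most (log2 difference −5.13, SE 1, adjusted p = 0.00251 by edgeR's quasi-likelihood test). Against LN3 thymus 1 of 7, Ms4a2, rose in LN3 spleen, where 0.694% of all tested genes rose. Red pulp macrophage markers rose for 7 of 10 in WT CD8 cells against WT thymocytes, Treml4 the most (6.15, SE 1.09, adjusted p = 0.00238). In LN3 spleen against LN3 thymus edgeR called 1 of the 10, Treml4 (6.08, SE 1.15, adjusted p = 0.0347), where 3 had an unadjusted p below 0.05 and DESeq2 called 2, and in LN3 thymus against WT thymocytes edgeR called Cd5l (3.36, SE 0.81, adjusted p = 0.018). B cell markers rose for 5 of 8 in WT CD8 cells against WT thymocytes, with Ighd, the delta heavy chain, highest (4.02, SE 0.80, adjusted p = 0.00477), and edgeR called 0 of 8 in LN3 spleen against LN3 thymus, at differences of 1.06 to 3.71, where 7 had an unadjusted p below 0.05 and DESeq2 called 6.

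Platelet and megakaryocyte markers rose for 2 of 9 tested in LN3 spleen against LN3 thymus, Ppbp and Itga2b, where 0.694% of all tested genes rose. Ppbp had 269 counts against 2, a ratio of 151 (95% counting interval 41.4 to 1250). In WT CD8 cells against WT thymocytes 3 of the 9 rose, where 7.24% of all tested genes rose, Ppbp the most (4.87, SE 1.08, adjusted p = 0.00932). Granulocyte and monocyte markers rose for 4 of 10 in WT CD8 cells against WT thymocytes, Csf3r the most (5.44, SE 1.08, adjusted p = 0.00494). In LN3 spleen against WT CD8 cells 2 of 10 fell, near the 13% of all tested genes that fell, Ly6c2 the most (−3.74, SE 0.81, adjusted p = 0.00466). Ly6c2 was even over the WT CD8 libraries (242, 278 and 252 CPM), where Lyz2 had 295, 1220 and 78.1 CPM and S100a8 33, 157 and 6.82. Whether the T cells themselves carried Ly6c2 was not tested. Of the 8 stroma and endothelium markers, only Col1a2 rose in LN3 spleen against WT CD8 cells (7.86, SE 1.80, adjusted p = 0.00701). Of all tested genes, 17.9% rose there. Col1a2 was uneven over the LN3 spleen libraries, at 1.22 CPM in library 1, 249 in library 2 and 143 in library 3. Its WT CD8 range was 0.505 to 0.612 CPM. The collagens Col1a1 (0.41, adjusted p = 0.531) and Col3a1 (−1.41, adjusted p = 0.419) were not called in the same comparison. In LN3 thymus against WT thymocytes Pdgfra rose (3.12) and Cdh5 fell (−3.94).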
